A study of Rattus norvegicus with 24 samples.

Results

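The translation initiation factors were taken as every gene whose symbol begins with Eif followed by a digit, which includes the eIF4E-binding proteins (Eif4ebp) and the eIF2alpha kinases (Eif2ak). The deposited table held 53 such rows, and the row with the highest mean was kept for each symbol. This gave 52 members of 13458 gene symbols. All 52 were above 0 in all 24 muscles, and all 52 entered the tests. Of these, 50 belonged to 8 lists of factor complexes, and Eif1a and Eif3el1 belonged to none. Eif4g1, Eif3e and 4 other listed symbols had no row among the 53.

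The tissue was the tibialis anterior (TA), the dorsiflexor of the ankle, taken for RNA-seq from both limbs of 12 aged male Fischer 344 rats (23 ± 1 months). In 9 animals the left common peroneal nerve was silenced with tetrodotoxin (TTX), a blocker of voltage-gated sodium channels that was delivered by an implanted pump, and nothing was done to the right limb. Left muscles came from animals killed after 6 to 7 days of TTX (atrophy, n = 3), after a further 9 days without TTX (recovery, n = 3), or after those 9 days and a second TTX period of 5 to 6 days (repeated atrophy, n = 3). Their 9 right limbs served as control, and 3 sham-operated animals, 1 per time point, gave 3 sham left and 3 sham right limbs. Control limbs therefore came from animals whose other leg received or had received TTX. The samples were whole muscle, in which fewer cells of a type and less RNA per cell cannot be told apart.

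The deposited values were CPM, reads of a gene scaled to a column total of 1000000. On this scale the median gene of the table was 0.22 and 0.20 higher on the log2 scale in atrophy and repeated atrophy limbs than in control limbs. Levels below are therefore CPM divided by a median of ratios factor for each limb (rescaled CPM), and fold changes were computed on log2(rescaled CPM + 1). A gene was called when it differed at least 1.2-fold and its limma p, adjusted by Benjamini-Hochberg over all 14031 rows tested, did not exceed 0.05. A pair of limbs stood apart from their groups. The atrophy limb of animal 367 had 25.6% of its CPM in the 10 most abundant rows, against 13.0% and 15.6% in the other 2 atrophy limbs, and in 7 members the gap between the control limb of animal 372 and the other control limbs exceeded Dixon's 95% critical value.

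Initiation begins when eIF2, charged with GTP, brings the initiator methionyl-tRNA to the small ribosomal subunit, where eIF1, eIF1A, eIF3 and eIF5 assemble. The cap-binding protein eIF4E, the scaffold eIF4G and the RNA helicase eIF4A together form eIF4F, which recruits the mRNA, and eIF5B then joins the large subunit. In muscle this machinery is controlled mainly at 2 points: mTORC1 releases eIF4E from its 4E-BP inhibitors, and stress kinases phosphorylate eIF2alpha and so slow its recharging by eIF2B.

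RefSeq promoter entries on the GRCr8 build matched 47 of the 52 members. The 120 bases upstream of the annotated start are shown for 6 genes on which the results turn: the helicase paralogs Eif4a1 and Eif4a2, Eif5b, the cap-binding genes Eif4e and Eif4e2, and the inhibitor Eif4ebp2. Capitals mark matches on either strand to the motifs searched.
Eif4a1, chr10:54888603-54888722, minus strand, a CCAAT box and a GC box: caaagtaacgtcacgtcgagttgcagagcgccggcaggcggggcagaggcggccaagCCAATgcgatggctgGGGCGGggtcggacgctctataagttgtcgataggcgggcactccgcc
Eif4a2, chr11:91275324-91275443, minus strand, a TATA box and a GC box: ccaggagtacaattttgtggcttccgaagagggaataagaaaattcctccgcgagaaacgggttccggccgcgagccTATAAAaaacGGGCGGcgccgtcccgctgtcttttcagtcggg
Eif5b, chr9:47718586-47718705, plus strand, no match: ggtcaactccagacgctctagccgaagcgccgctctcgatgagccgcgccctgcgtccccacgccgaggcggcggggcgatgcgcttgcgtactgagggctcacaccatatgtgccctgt
Eif4e, chr2:229740633-229740752, plus strand, an E-box and a CCAAT box: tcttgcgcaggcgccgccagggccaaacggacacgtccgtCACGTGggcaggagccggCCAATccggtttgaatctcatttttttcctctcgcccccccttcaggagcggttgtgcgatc
Eif4e2, chr9:95333905-95334024, plus strand, a GC box and an ETS site: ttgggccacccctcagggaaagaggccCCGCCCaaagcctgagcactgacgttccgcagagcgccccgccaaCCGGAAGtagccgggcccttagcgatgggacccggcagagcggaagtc
Eif4ebp2, chr20:29942923-29943042, minus strand, 2 GC boxes and an ETS site: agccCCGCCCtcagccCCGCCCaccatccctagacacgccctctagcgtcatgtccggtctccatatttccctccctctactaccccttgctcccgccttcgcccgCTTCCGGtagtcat

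Over the 250 bases upstream of the start, the ETS site CCGGAAG was present in 19 of 47 members (40.4%), against 13.8% of the promoters of genes in the table and 7.74% of all promoter entries. The GC box GGGCGG was present in 31 members (66.0%), against 56.0% and 32.4%. The E-box CACGTG, which MYC and related factors bind, was present in 7 members (14.9%), against 7.70% and 5.79%. The CCAAT box was found in 29.8% of members and in 34.8% of the genes in the table. The cyclic AMP response element TGACGTCA and the YY1 site AAGATGGCG were in none, the TATA box TATAAA was in 2 and the ATF4-C/EBP element TGATGCAA was in 1. Of the 13 members with an entry that rose after repeated atrophy, 4 held the ETS site and 8 the GC box. These matches describe letters in a window and were not tested.

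Against control limbs, 6 of 52 members rose after atrophy (11.5%, against 4.57% of all rows tested) and none fell (5.17% of all rows). After recovery 2 rose (3.85%, against 6.24% of all rows) and 8 fell (15.4%, against 5.87%). After repeated atrophy 14 rose (26.9%, against 13.2%) and 2 fell (3.85%, against 12% of all rows). The median log2 fold change of the members was 0.19 (atrophy), -0.11 (recovery) and 0.22 (repeated atrophy), where the median of all rows lay between -0.01 and 0.01. Sham left limbs, without TTX, had a median of 0.12 against the same control limbs (0.01 for all rows). In them 35 of 52 members were above control. In this fit the higher calls of repeated atrophy exceeded the background share, while the lower calls were below it. The number of calls changed when single limbs were left out, as given at the end. Higher in both comparisons with TTX limbs were 5 members (Eif5b, Eif4a1, Eif2s3, Eif3l and Eif5a), against 4.15% of all rows, and both comparisons use the same control limbs.

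**Figure D1:**
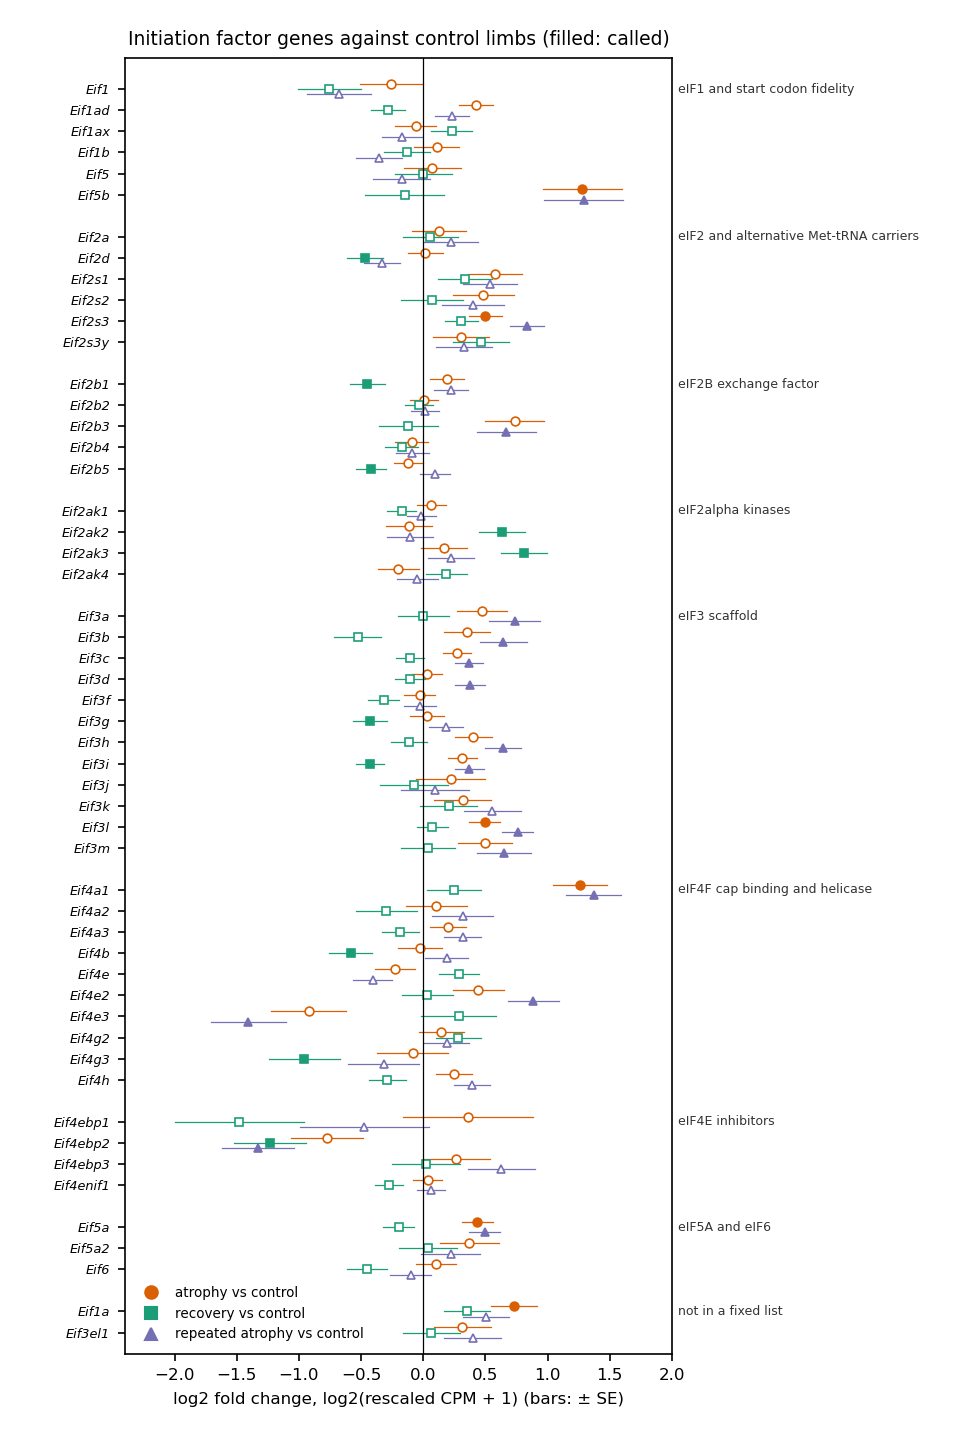
Log2 fold change of each of the 52 members against the 9 control limbs, grouped by factor list, after atrophy (circles), recovery (squares) and repeated atrophy (triangles), on log2(rescaled CPM + 1) with bars of ± SE. Filled symbols were called: Eif5b and Eif4a1 lie farthest to the right after both periods of TTX, and Eif4e3 and Eif4ebp2 lie to the left after repeated atrophy.

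Scaling changed the size of these counts. On the CPM as deposited, 23 members rose and none fell after atrophy (20.3% and 2.33% of all rows), 1 rose and 1 fell after recovery (4.4% and 3.33%), and 31 rose and 2 fell after repeated atrophy (28.1% and 6.24%). At most 1 of the 8 members that fell after recovery on the rescaled values was thus called lower on this scale. With the animal as a block, which sets each left limb against its own right limb, 15 members rose and 3 fell after repeated atrophy (10.8% and 10.2% of all rows). The blocked fit called no member after atrophy (0% of all rows in either direction) or after recovery (0.314% and 0.135% of all rows); 7 and 13 members then had an unadjusted p under 0.05 (13.5% and 25.0%, against 15.3% and 22% of all rows). Without the atrophy limb of animal 362, or without that of animal 372, no member was called after atrophy. Without the control limb of animal 372 the count after atrophy was 11 higher and 1 lower. For fits that leave out limbs, here and below, the share of all rows called is not given, so these counts have no background.

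In the eIF2 trimer, which carries the initiator tRNA, the gamma subunit was the one called. Eif2s3 (rn7 chrX:58916513-58939924), which encodes eIF2gamma, had 76.1, 78.6 and 113 rescaled CPM as its lowest, median and highest control level. Its atrophy limbs had 148, 104 and 117, its recovery limbs 104, 99.3 and 116, and its repeated atrophy limbs 160, 156 and 147. Every repeated atrophy limb lay above every control limb, whereas the atrophy limbs overlapped the controls. Eif2s3 rose by 0.50 ± 0.13 on the log2 scale after atrophy (SE; limma adjusted p = 0.0285), and the rise after repeated atrophy was 0.83 ± 0.13 (adjusted p = 0.00029). In the repeated atrophy animals the left limb was above the right in 3 of 3, by 0.87 ± 0.18 (mean ± SD of log2 differences). The alpha subunit Eif2s1, the target of the stress kinases, was not called after either period (0.58 ± 0.22, adjusted p = 0.0952, and 0.54 ± 0.22, adjusted p = 0.0763), although the blocked fit called it after repeated atrophy (0.68, adjusted p = 0.031). Its control limbs spanned 43.7 to 104 rescaled CPM and its repeated atrophy limbs had 121, 112 and 67.6. Eif2d, an alternative carrier of initiator tRNA, fell after recovery by 0.47 on the log2 scale (adjusted p = 0.0409), from a control mean of 46.6 to 35.4, 34.2 and 29.5 in the recovery limbs. The lowest control limb had 31.4, and the sham left limbs had 36.3, 38.2 and 36.1, close to the recovery limbs. Its call was lost without any one of the 3 recovery limbs or 5 of the 9 control limbs. Eif2s3 and its Y-linked paralog Eif2s3y can share reads, and how such reads were assigned is not given in the sources used here.

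The 5 eIF2B subunits, which recharge eIF2 with GTP, gave no call after atrophy, where Eif2b3 was at 0.73 ± 0.24 (adjusted p = 0.0568). After recovery the regulatory subunit Eif2b1 and the catalytic subunit Eif2b5 fell. Eif2b5 had 53.9, 63.4 and 80.6 rescaled CPM as its lowest, median and highest control level and 45.4, 51.3 and 45.8 in the recovery limbs, which lay below every control limb. The difference was -0.42 ± 0.12 (adjusted p = 0.0288), and the call was lost without any one of the 3 recovery limbs. Eif2b1 was at -0.45 ± 0.14 (adjusted p = 0.0434), a call that held in 11 of 18 fits without 1 limb and was lost without each recovery limb and the control limbs of animals 362, 365, 366 and 372. After repeated atrophy only Eif2b3 of the 5 subunits passed, at 0.67 ± 0.24 (adjusted p = 0.0463), with 37.5, 31.8 and 32.8 rescaled CPM against a control median of 18.9. Its highest control limb, that of animal 372, had 41.1, and the call held in 5 of 18 fits that each left out 1 limb, with an adjusted p of up to 0.16. Eif2b1 and Eif2b5 were both higher in repeated atrophy than in recovery limbs (0.67 ± 0.17, adjusted p = 0.0112, and 0.51 ± 0.14, adjusted p = 0.0185).

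Calls among the eIF2alpha kinases came in recovery limbs, and none came in TTX limbs. Eif2ak3 (rn7 chr4:102805510-102866915), which encodes PERK, the kinase of endoplasmic reticulum stress, was a low transcript with control limbs between 2.25 and 4.54 rescaled CPM. The recovery limbs had 7.42, 7.53 and 5.73, all above the controls, a rise of 0.81 ± 0.19 (adjusted p = 0.0111). The sham left limb of animal 354 had 6.501, which is above every control limb and above the recovery limb of animal 371. Eif2ak2, which encodes the double-stranded RNA sensor PKR, went from a control median of 25.2 and maximum of 34.5 to 41.8, 39.4 and 34.9 (0.63 ± 0.19, adjusted p = 0.0339). Both limbs of sham animal 354 (40.5 and 38.3) lay in the range of the recovery limbs. It was also higher in recovery than in atrophy limbs (0.75 ± 0.23, adjusted p = 0.0436) and lower in repeated atrophy than in recovery limbs (-0.74 ± 0.23, adjusted p = 0.028). The block lost both of these calls, and the CPM as deposited lost the former. In the recovery animals Eif2ak3 was higher in the left limb in 3 of 3 and Eif2ak2 by 0.67, 0.53 and 0.02 on the log2 scale, and the blocked fit called neither (adjusted p = 0.11 for Eif2ak3 and 0.28 for Eif2ak2). Leaving out the recovery limb of animal 369 or 370 also lost both calls (Eif2ak3 adjusted p = 0.067 and 0.054), and for Eif2ak2 so did leaving out that of animal 371 or the control limb of animal 365 or 366. Eif2ak1, which encodes the heme-regulated kinase, and Eif2ak4, the amino acid sensor GCN2, were called nowhere, and Eif2ak4 stayed between 4.33 and 7.87 rescaled CPM in the 18 limbs.

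Recovery limbs also had higher levels of fibroblast and macrophage markers, whereas no endothelial, Schwann cell, adipocyte or neutrophil marker was called against control. All 5 fibroblast markers rose (summed level 1212 to 1915 rescaled CPM in the recovery limbs, against 189 to 603 in controls), as did 5 of 6 macrophage markers (93.3 to 161, against 32.6 to 103), where 6.24% of all rows rose. The blocked fit called 1 of the 5 and none of the 6, and on the CPM as deposited 4 and 3 were called. The part of these cells in the recovery values of the kinases and of the members that fell was not tested.

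Of the factors for start codon selection and subunit joining, Eif5b rose after both periods of TTX. Eif5b (rn7 chr9:40222898-40277483) encodes the GTPase that joins the large ribosomal subunit. Its control limbs had 190, 367 and 656 rescaled CPM as lowest, median and highest level. The atrophy limbs had 1023, 701 and 889, the recovery limbs 348, 277 and 339, and the repeated atrophy limbs 1084, 1026 and 587. Thus all 3 atrophy limbs lay above the controls, the recovery limbs lay within them, and 1 repeated atrophy limb overlapped them. Eif5b rose 2.43-fold after atrophy (1.28 ± 0.32, adjusted p = 0.0217) and 2.44-fold after repeated atrophy (1.29 ± 0.32, adjusted p = 0.00606). The second rise held in the blocked fit (1.28, adjusted p = 0.0044) and the first did not (0.81, adjusted p = 0.17). Sham left limbs had 443, 334 and 744, so that the sham limb of animal 379 exceeded the highest control and the TTX limbs at 701 and 587.

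Eif1, the guardian of start codon fidelity and per kb of transcript the most abundant member in control limbs (719 rescaled CPM per kb), was not called. Its control limbs spanned 547 to 1186 rescaled CPM, and the recovery limbs had 475, 462 and 392. The difference was -0.76 ± 0.26 (adjusted p = 0.0604) after recovery and -0.68 ± 0.26 (adjusted p = 0.0596) after repeated atrophy. With the animal as a block the repeated atrophy difference was -0.91 (adjusted p = 0.0055), and the left limb was lower in 3 of 3 animals. On the CPM as deposited it was -0.30 (adjusted p = 0.42). Eif1, Eif1b and the Eif1a genes have near-identical relatives, so their separate levels are uncertain. Eif1a, which encodes a scanning factor and lies outside the lists, rose after atrophy (0.73 ± 0.19, adjusted p = 0.0239; 40.5, 36.2 and 51.1 rescaled CPM against a control maximum of 34.5). Both limbs of sham animal 379 also exceeded that maximum (47.7 on the left and 37.0 on the right). Eif1ad was lower in recovery than in atrophy limbs (-0.71 ± 0.17, adjusted p = 0.0163).

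The eIF3 scaffold bridges the 40S subunit and eIF4G, and 8 of its 12 measured subunits rose after repeated atrophy, against 13.2% of all rows: Eif3a, Eif3b, Eif3c, Eif3d, Eif3h, Eif3i, Eif3l and Eif3m. After atrophy 1 rose (Eif3l; 4.57% of all rows), and after recovery 2 fell (Eif3g and Eif3i; 5.87% of all rows). The median log2 fold change of the 12 subunits was 0.32 (atrophy), -0.11 (recovery) and 0.47 (repeated atrophy). Eif3g was called in 4 of 18 fits without 1 limb (adjusted p up to 0.17), and Eif3i after recovery lost its call without the recovery limb of animal 369 or 370. Eif3l (rn7 chr7:110652565-110663615) had 63.6, 72.1 and 93.8 rescaled CPM as its lowest, median and highest control level. It had 111, 88.6 and 112 in atrophy limbs, 81.2, 69.4 and 81.2 in recovery limbs, and 148, 114 and 115 in repeated atrophy limbs. The repeated atrophy limbs thus lay above all controls, and recovery lay among them. The rise of Eif3l was 0.76 ± 0.13 after repeated atrophy (adjusted p = 0.000382) and 0.49 ± 0.13 after atrophy (adjusted p = 0.0239).

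Eif3a (rn7 chr1:259902779-259932977), the largest subunit, had control levels of 227, 264 and 532 at the lowest, median and highest limb. Its repeated atrophy limbs had 549, 506 and 446, a rise of 0.73 ± 0.20 (adjusted p = 0.0127). Only the limb of animal 364 exceeded the highest control limb, which was that of animal 372. Eif3m rose by 0.65 ± 0.22 (adjusted p = 0.0358). Eif3f, a subunit that interacts with mTORC1, was not called: its control limbs spanned 117 to 159, its repeated atrophy limbs had 155, 127 and 121, and the difference was -0.03 ± 0.13 (adjusted p = 0.906). Eif3j, the loosely bound subunit, and Eif3k, which pairs with Eif3l, were not called in any comparison. Nor was Eif3el1, which lies outside the list of 12.

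In the blocked fit 6 of the 8 calls held, and Eif3d (adjusted p = 0.14) and Eif3i (adjusted p = 0.084) were lost. For each of the 8 subunits the left limb exceeded the right in 3 of 3 repeated atrophy animals. Leaving out 1 limb at a time, Eif3h and Eif3l kept their calls in all 18 fits. The other 6 each lost the call without 1 or more repeated atrophy limbs, with adjusted p values of up to 0.18 (Eif3d without animal 364), and Eif3m also without 4 of the control limbs. Between recovery and repeated atrophy limbs 8 subunits differed, all higher after repeated atrophy (10.3% of all rows) and none of them called in the blocked fit, with Eif3b showing a change of 1.17 ± 0.23 (adjusted p = 0.00272) from 112, 111 and 139 to 292, 238 and 288 rescaled CPM.

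In the cap-binding complex the helicase paralogs separated. Eif4a1 (rn7 chr10:54384345-54389854), the helicase of proliferating cells, had 93.3, 110.5 and 196 rescaled CPM as its lowest, median and highest control level. The atrophy limbs had 293, 222 and 361, the recovery limbs 134, 123 and 171, and the repeated atrophy limbs 438, 285 and 236. All 6 TTX limbs lay above all 9 controls, and the recovery limbs lay within them. The sham left limb of animal 379 had 240.2, which is above the TTX limbs at 222 and 236. Eif4a1 rose 2.39-fold after atrophy (1.26 ± 0.22, adjusted p = 0.00934) and 2.59-fold after repeated atrophy (1.37 ± 0.22, adjusted p = 0.00029). The repeated atrophy call held in all 18 fits without 1 limb and in the blocked fit (1.47, adjusted p = 0.0027). The left limb was higher in 3 of 3 animals in each cohort, by 0.96 ± 0.39, 0.44 ± 0.31 and 1.47 ± 0.15, and also in 3 of 3 sham animals, by 0.19 ± 0.22. After atrophy the blocked adjusted p was 0.17, and without the atrophy limbs of animal 362 or 372 in turn it was 0.11 and 0.098 in the fit without a block.

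Eif4a2 (rn7 chr11:77764126-77770720), the paralog of differentiated tissue, had control levels of 621, 844 and 1778. It had 1019, 913 and 992 in atrophy limbs, 765, 712 and 734 in recovery limbs and 1188, 1265 and 953 in repeated atrophy limbs, all within the controls. Its differences of 0.11 ± 0.25, -0.30 ± 0.25 and 0.32 ± 0.25 were not called (adjusted p = 0.837, 0.453 and 0.384). Expressed per kb of transcript, Eif4a1 made up 7.76% to 16.2% of the summed Eif4a1 and Eif4a2 level in control limbs. Atrophy limbs had 20.5% to 27.9%, recovery limbs 15.6% to 19.9% and repeated atrophy limbs 19.3% to 28.2%. Sham left limbs had 10.5%, 14.3% and 20.7%, so the highest sham limb reached the range of the TTX limbs. The coding sequences of the paralogs are alike, and reads shared between them could not be traced here.

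**Figure D2:**
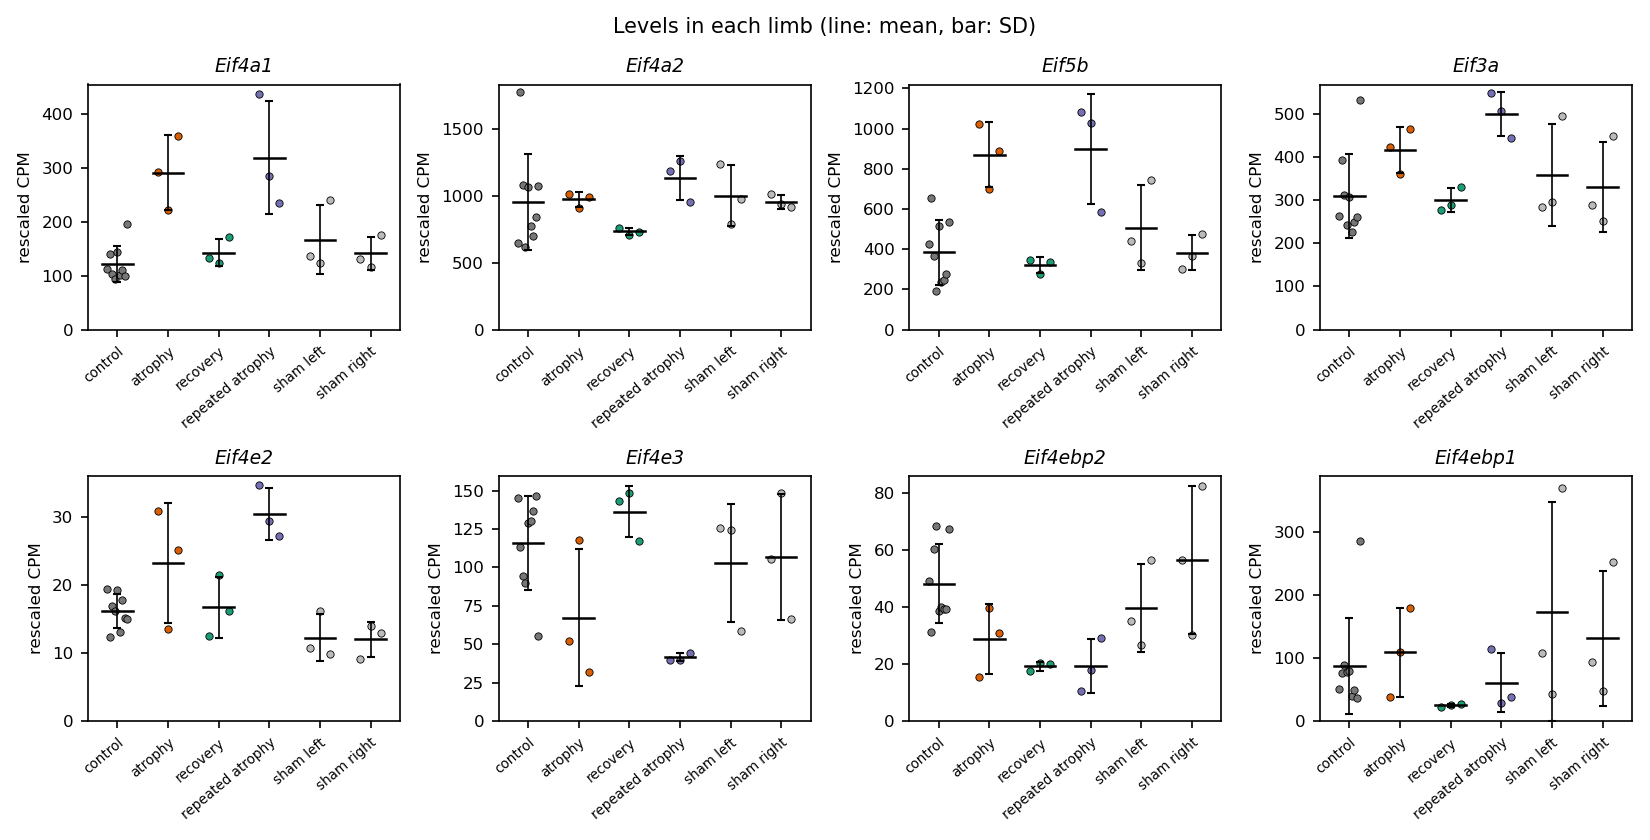
Rescaled CPM of 8 members in each limb of the 6 groups, 9 control limbs and 3 limbs in each other group, with the mean (line) and SD (bar, ending at the axis where it would pass 0). Eif4a1 is above all controls in all 6 TTX limbs, Eif4a2 is not, and Eif4e3 falls to 39.9 to 44.4 after repeated atrophy while Eif4e2 rises to 27.1 to 34.7.

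The cap-binding proteins moved in opposite directions. Eif4e2 (rn7 chr9:87886078-87901059) encodes 4EHP, a cap-binding protein that does not bind eIF4G and is known for translational repression. Its control limbs had 12.3 to 19.4 rescaled CPM with a median of 16.1. The atrophy limbs had 30.9, 13.6 and 25.2, the recovery limbs 12.5, 21.4 and 16.1, and the repeated atrophy limbs 34.7, 29.4 and 27.1. Eif4e2 rose after repeated atrophy (0.88 ± 0.21, adjusted p = 0.00419) and was not called after atrophy (0.44 ± 0.21, adjusted p = 0.178), where the limb of animal 367 lay at control level. Eif4e2 is outside the rule by which genes were chosen for full description, and was added after its values were seen.

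Eif4e3 (rn7 chr4:132258502-132301809), an atypical cap-binding protein, had control levels of 55.0, 129 and 147 at the lowest, median and highest limb. The repeated atrophy limbs had 40.1, 39.9 and 44.4, all below the controls, and the recovery limbs had 143, 148 and 117. After atrophy the limbs had 52.4, 118 and 32.0, with animal 367 again among the controls. Eif4e3 fell after repeated atrophy (-1.41 ± 0.30, adjusted p = 0.00239; blocked -1.24, adjusted p = 0.005), and after atrophy it was at -0.92 ± 0.30 (adjusted p = 0.0601). Without the atrophy limb of animal 367 and the control limb of animal 372 it was at -1.53 after repeated atrophy.

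Eif4e itself, the canonical cap-binding protein, lay between them. Its control limbs spanned 89.0 to 148 rescaled CPM, its recovery limbs had 135, 155 and 126, and its repeated atrophy limbs had 93.0, 93.2 and 71.5. Eif4e was not called against control (0.29 ± 0.16 after recovery, adjusted p = 0.248, and -0.41 ± 0.16 after repeated atrophy, adjusted p = 0.0687), and it was lower in repeated atrophy than in recovery limbs (-0.69 ± 0.19, adjusted p = 0.0182). On the CPM as deposited that difference was -0.33 (adjusted p = 0.22). The left limb had less Eif4e than the right in 3 of 3 atrophy and 3 of 3 repeated atrophy animals and more in 3 of 3 recovery animals. Per kb, Eif4e2 made up 12.0% to 22.9% of the summed Eif4e2 and Eif4e level in control limbs and 34.1% to 38.4% in repeated atrophy limbs. For Eif4e3 against Eif4e the share was 36.6% to 54.4% in control and 28.5% to 36.7% in repeated atrophy limbs.

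**Figure D3:**
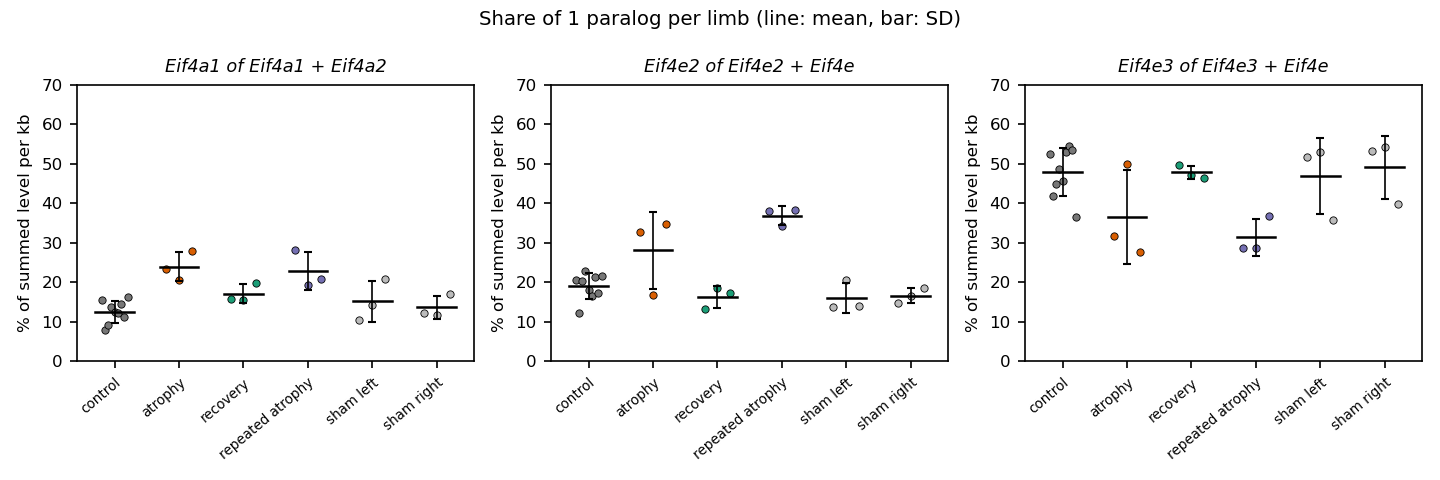
Share of the first paralog in the summed level of a pair, per kb of transcript, in each limb (points), with the mean (line) and SD (bar) of each group. The Eif4a1 share is 7.76% to 16.2% in control limbs and 20.5% to 27.9% in atrophy limbs, and the Eif4e2 share reaches 34.1% to 38.4% after repeated atrophy.

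Among the remaining eIF4F genes, Eif4g3, which encodes the scaffold eIF4GII, and Eif4b, a cofactor of the helicase, fell after recovery. Eif4g3 (rn7 chr5:150251142-150418364) had control levels of 168, 224 and 606 rescaled CPM and recovery levels of 126, 128 and 130, below every control limb. The difference was -0.96 ± 0.29 (adjusted p = 0.0367), and without the atrophy limb of animal 367 and the control limb of animal 372, which had the level of 606, it was -0.80 (adjusted p = 0.014). Leaving out any one of the 3 recovery limbs, or the control limb of animal 365, lost the call. The left minus right difference was -0.54, -0.38 and -0.49 in the 3 recovery animals, and the blocked fit did not call it (adjusted p = 0.23). Eif4b was at -0.58 ± 0.17 after recovery (adjusted p = 0.037), lost without any one recovery limb or the control limb of animal 365, and higher in repeated atrophy than in recovery limbs (0.77 ± 0.21, adjusted p = 0.017). Eif4g2, which lacks the eIF4E-binding region, and Eif4a3, a helicase of the exon junction, were called in no comparison.

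Of the inhibitors of eIF4E, Eif4ebp2 fell and Eif4ebp1 varied widely. Eif4ebp2 (rn7 chr20:29383441-29400111) encodes the binding protein 4E-BP2. Its control limbs had 31.1, 39.9 and 68.3 rescaled CPM as lowest, median and highest level. The recovery limbs had 17.5, 20.4 and 19.9 and the repeated atrophy limbs 10.7, 18.01 and 29.2, all below the controls. The sham limbs of animal 377 had 26.7 on the left and 30.3 on the right, also below them. The atrophy limbs had 15.5, 39.8 and 30.9, the middle value being that of animal 367. The difference was -0.77 ± 0.29 after atrophy (adjusted p = 0.0954), -1.23 ± 0.29 after recovery (adjusted p = 0.0129) and -1.33 ± 0.29 after repeated atrophy (adjusted p = 0.00267). The left limb was lower than the right in 3 of 3 recovery, 3 of 3 repeated atrophy and also 3 of 3 sham animals. Its mean difference was -1.45 ± 0.25 (SD) in the repeated atrophy and -0.46 ± 0.26 in the sham animals. The blocked fit called the repeated atrophy fall (adjusted p = 0.005) and not the recovery fall (adjusted p = 0.087), and the latter was also lost without the recovery limb of animal 369 (adjusted p = 0.072).

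Eif4ebp1 (rn7 chr16:64792595-64805985), the main 4E-BP of muscle and a target of mTORC1, ran from 36.6 to 88.6 rescaled CPM in 8 control limbs and reached 285 in that of animal 372. The atrophy limbs had 38.7, 109 and 179, the recovery limbs 22.3, 25.2 and 27.0, and the repeated atrophy limbs 115, 29.1 and 38.7. The 3 recovery limbs lay below every control, yet the difference of -1.48 ± 0.52 was not called (adjusted p = 0.0698). The sham limbs of animal 379 had 370 on the left and 252 on the right, so a high level occurred in both limbs of an animal that received no TTX. Eif4ebp3 and Eif4enif1, the eIF4E transporter, were not called.

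Eif5a (rn7 chr10:54640112-54644513), an elongation factor by present knowledge despite its name, carries the modified lysine hypusine. Its control limbs had 322, 346 and 443 rescaled CPM as lowest, median and highest level, the last being animal 372. The atrophy limbs had 499.7, 420.1 and 523, and the repeated atrophy limbs 599, 459 and 452, all of the latter above the controls. Eif5a rose after atrophy (0.43 ± 0.12, adjusted p = 0.0362) and repeated atrophy (0.49 ± 0.12, adjusted p = 0.00748; blocked 0.56, adjusted p = 0.023). The atrophy call was also lost without the control limb of animal 362, 365, 366, 369, 370 or 371 (adjusted p up to 0.062). Without the repeated atrophy limb of animal 364 the latter was at 0.36 with an adjusted p of 0.074. Eif6, which keeps the ribosomal subunits apart, was not called. Its recovery limbs had 32.6, 26.0 and 31.5, below all controls (33.2 to 49.3), with a difference of -0.45 ± 0.16 (adjusted p = 0.0755).

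As a description, the log2 levels of the members of a list were averaged in each limb. The eIF3 list was 0.28 higher than control after atrophy, where the median of all rows was near 0, and 0.45 higher after repeated atrophy (0.65 and 0.83 on the CPM as deposited). The kinase list was 0.36 higher after recovery, with all 3 recovery limbs above all controls, and 0.23 higher with members of at least 10 CPM only. The sham left limb of animal 354 was also above all controls and above the recovery limb of animal 370. The eIF2B list (-0.24) and the list of eIF4E inhibitors (-0.74) were lower after recovery, with all 3 recovery limbs below all controls. For the inhibitors the sham left limb of animal 377 was also below all controls. Taken as left minus right within each animal, the differences of these lists were smaller. For recovery they were -0.12 ± 0.07 for eIF2B, -0.44 ± 0.05 for the inhibitors and 0.28 ± 0.21 for the kinases (mean ± SD of 3 animals). The eIF3 list was at 0.13 ± 0.13 in the atrophy animals, with the left limb higher in 2 of 3, and at 0.41 ± 0.06 in the repeated atrophy animals. The mean of a list hides members that moved apart: the eIF4F mean was 0.15 above control after repeated atrophy (0.53 on the CPM as deposited), while its members ran from -1.41 to 1.37.

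**Figure D4:**
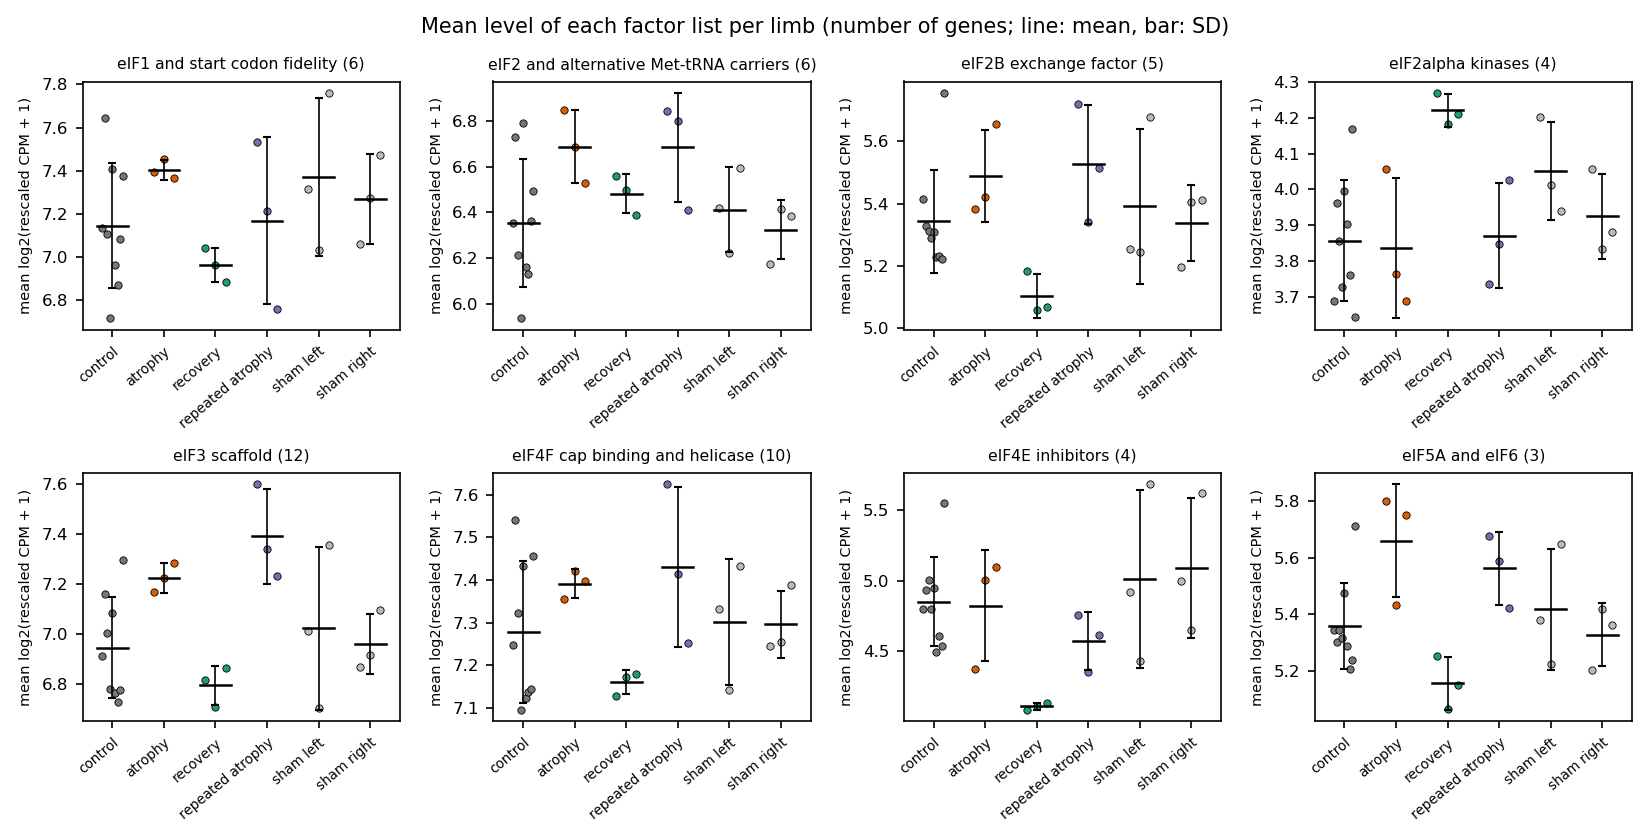
Mean log2(rescaled CPM + 1) of the members of each of the 8 factor lists in each limb (points; number of genes in brackets), with the mean (line) and SD (bar) of each group. The vertical axes do not start at 0 and differ between panels. The recovery group has the highest mean for the kinases and the lowest in 6 of the 8 lists, all but eIF2 and the kinases.

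Set against each other, treated groups differed most between recovery and repeated atrophy, where 18 members were higher (10.3% of all rows) and 3 lower (11.3%) after repeated atrophy. The 3 that were lower were Eif4e, Eif4e3 and Eif2ak2. Between atrophy and recovery, 2 members were higher in recovery limbs (5.77% of all rows) and 7 lower (4.85%). These treated groups came from different animals, and the blocked fit, which compares left minus right differences, called no member in either comparison (28.8% of members and 18.2% of all rows had an unadjusted p under 0.05 between repeated atrophy and recovery, and 9.62% and 8.07% between recovery and atrophy). Leaving out the recovery limb of animal 369 or 370 or the repeated atrophy limb of animal 364 took the count of 21 between recovery and repeated atrophy to 12, 10 and 9. Between atrophy and recovery, the count of 9 became 1 without the atrophy limb of animal 372, 2 and 1 without the recovery limbs of animals 369 and 370, and 14 without the control limb of animal 372. No member differed between repeated atrophy and atrophy limbs in limma, where 1 of 52 members had an unadjusted p under 0.05 and 0% of all rows was called in either direction. These comparisons share the treated limbs and the pooled spread with those above.

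In the sham animals no member was called for left limbs against control limbs or against the right limbs of the same animals. In both comparisons 0% of all rows was called. An unadjusted limma p under 0.05 was reached by 1 of 52 members in the first (1.92%, against 8.56% of all rows). None of 52 reached it in the second (0.757% of all rows). Even so, 35 of 52 members were above control in sham left limbs, at a median log2 fold change of 0.12. The mean of the eIF1 list was 0.23 above control there, and that of the kinases 0.19. Each sham limb was the only one of its time point, so its group mixes 3 time points.

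The regulators of these factors were followed through lists of genes upstream and downstream. With the animal as a block, none of the calls after atrophy or recovery given here for these regulators held. Of 13 measured mTORC1 genes, 1 rose and 2 fell after repeated atrophy (13.2% and 12% of all rows): Rps6kb1, the S6 kinase, rose (0.66 ± 0.17, adjusted p = 0.00813), and Ddit4 (-1.42 ± 0.39, adjusted p = 0.0117) and Sesn1 (-1.21 ± 0.27, adjusted p = 0.00314), both inhibitors of mTORC1, fell. After recovery Akt1s1 and Tsc2 fell and Sesn3 rose, and after atrophy Mlst8 fell. On the CPM as deposited Tsc2 and Mlst8 lost their calls, and 3 genes rose and none fell after atrophy (20.3% and 2.33% of all rows), while 3 rose and 2 fell after repeated atrophy (28.1% and 6.24%). Mtor was not called against control (0.29 ± 0.14 after atrophy, adjusted p = 0.199), and it was lower in recovery than in atrophy limbs (-0.73 ± 0.17, adjusted p = 0.0171) and higher in repeated atrophy than in recovery limbs (0.70 ± 0.17, adjusted p = 0.0102). The block lost both of these calls (adjusted p = 0.8 and 0.33).

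Of 8 measured partners of eIF4F, Pabpc1, the poly(A)-binding protein that closes the mRNA loop, rose after atrophy (0.78 ± 0.20, adjusted p = 0.0254) and repeated atrophy (0.91 ± 0.20, adjusted p = 0.00301). Mknk1, which phosphorylates eIF4E, fell after both (-0.88 ± 0.23, adjusted p = 0.0256, and -1.76 ± 0.23, adjusted p = 6.72e-05), from a mean of 26.2 to 14.3 and 6.92 rescaled CPM. Its atrophy call was lost on the CPM as deposited (-0.53, adjusted p = 0.051), and 4 partners rose after repeated atrophy (28.1% of all rows), against 1 on the rescaled values (13.2%). Its relative Mknk2 fell after recovery (-1.44 ± 0.36, adjusted p = 0.0176), and Pdcd4, an inhibitor of eIF4A, fell after repeated atrophy (-0.56 ± 0.20, adjusted p = 0.0427), a call that held in 7 of 18 fits without 1 limb and not on the CPM as deposited (-0.19, adjusted p = 0.55).

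Of the 6 genes of the ATF4 branch, which lies downstream of the eIF2alpha kinases, Asns rose after atrophy and repeated atrophy (1.72 ± 0.50, adjusted p = 0.0366, and 2.94 ± 0.50, adjusted p = 0.000422), where 4.57% and 13.2% of all rows rose. Atf4 and Atf5 themselves fell after repeated atrophy (-1.65 ± 0.31, adjusted p = 0.000898, and -1.04 ± 0.27, adjusted p = 0.00862), Atf4 from a mean of 458 to 157 rescaled CPM, where 12% of all rows fell. After recovery none of the 6 rose, and Chac1 fell (-3.30 ± 0.74, adjusted p = 0.00984), from a mean of 35.2 to 1.91, where 5.87% of all rows fell. ATF4 protein is set largely by translation, which these data do not measure. Of 8 partners of the eIF2 pathway, 1 rose after repeated atrophy, where 13.2% of all rows rose (Ppp1r15b, a phosphatase subunit for eIF2alpha, 0.39 ± 0.14, adjusted p = 0.0438). It held in 6 of 18 fits without 1 limb and not with the block (adjusted p = 0.059), while 5 of the 8 rose on the CPM as deposited (28.1% of all rows). After recovery Mcts1 rose (1.13 ± 0.30, adjusted p = 0.0226) and Gcn1, the activator of GCN2, fell (-0.83 ± 0.26, adjusted p = 0.0449; deposited CPM -0.82, adjusted p = 0.091).

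Beyond initiation, 4 of 10 elongation and release factors rose after repeated atrophy (13.2% of all rows) and 3 after atrophy (4.57%). On the CPM as deposited 7 and 6 rose (28.1% and 20.3% of all rows), and with the block 5 and none. Eef1a1, the tRNA carrier of non-muscle cells and immature muscle, rose most (1.497 ± 0.32, adjusted p = 0.0126, and 2.40 ± 0.32, adjusted p = 7.4e-05), from a mean of 762 to 2356 and 3998 rescaled CPM. Eef2k, the kinase that stops eEF2, fell after repeated atrophy (-0.61 ± 0.17, adjusted p = 0.0144) and recovery (-0.63 ± 0.17, adjusted p = 0.0254), but on the CPM as deposited it was at -0.23 after repeated atrophy (adjusted p = 0.41) and -0.61 after recovery (adjusted p = 0.061), and after repeated atrophy it was not called with the block (-0.59, adjusted p = 0.085). Eef2 also fell after recovery, from a mean of 2409 to 1224 rescaled CPM, where 5.87% of all rows fell. Its call was lost on the CPM as deposited. With the block neither Eef2 nor Eef2k was called after recovery. Of the enzymes that make hypusine on eIF5A, Dohh fell after recovery (-0.92 ± 0.26, adjusted p = 0.0269), a call lost with the block, and Dhps was not called. The summed level of 8 muscle fibre markers was 66009 to 174730 rescaled CPM in atrophy and 83509 to 140050 in repeated atrophy limbs, against 163060 to 292750 in controls. None of the 8 was called by limma against control on the rescaled CPM, on the deposited CPM or with the block; on the rescaled CPM 3 (atrophy) and 1 (repeated atrophy) had an unadjusted p under 0.05. Myh2 had a mean of 5927 in atrophy and 3374 in control limbs. Of 5 endothelial markers, 3 fell after repeated atrophy (12% of all rows), 4 with the block and none on the CPM as deposited. Of 3 satellite cell markers, Myf5 rose after atrophy and repeated atrophy (4.57% and 13.2% of all rows). It went from a mean of 4.99 to 37.3 and 36.8 rescaled CPM (lowest limb 7.14 and 25.5). Cdh15 fell after recovery and repeated atrophy (5.87% and 12% of all rows), from a mean of 25.7 to 11.1 and 10.2. The third, Pax7, was not called, with means of 0.577 in control, 0.196 in atrophy, 0.642 in recovery and 0.594 in repeated atrophy limbs. Both repeated atrophy calls held with the block, and the other 2 did not. The highest sham limbs had 60.7 (left) and 44.1 (right) of Myf5. Of 3 neutrophil markers, S100a8 rose after repeated atrophy (13.2% of all rows), from a mean of 0.678 to 1.82, with up to 10.1 in sham left limbs. No fibroblast or macrophage marker was called after either period of TTX, and no marker was at 0 in all limbs. The part of the fibre, endothelial and satellite cell levels in the values of the initiation factors was not tested.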

How the data were processed

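Poly(A) RNA-seq of 24 tibialis anterior muscles was used. The authors removed contaminant reads with Bowtie2 (2.2.5), aligned to rn7 with STAR and processed in Partek Flow. The annotation and counting are not given in the sources used here. The authors deposited 1 table of CPM, in which every column sums to 1000000. Of 27 value columns, 3 matched no sample and were not used. Steps between low values imply 18.9 to 30.9 (in units of 1000000) reads per limb, but only 85.4% to 88.6% of low values were whole multiples (within 0.02 of a step), so reads were not treated as recovered, no count test was run and depth stays approximate.

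From 14271 rows, 28 duplicates were dropped. The CPM were divided by median of ratios factors (the normalization that the study's methods name) and log2(x + 1) was fitted with limma 3.58.1 in R 4.3.3, with trend, for 18 limbs in 1 fit without a block. Rows above 0 in at least 3 limbs were tested: 14031, and 13822 and 13483 for the sham comparisons. The script was tested on simulated data.

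The labels give both limbs of each animal, which pairs them. Left and right deviations correlated at 0.61 to 0.84 in sham animals and at -0.33 to 0.54 in TTX animals over 10613 rows.

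The members and lists were chosen with earlier results of these data known. Described in full were the 3 called members of each list with the largest fold change and fixed control points (Eif4ebp1, Eif4e, Eif4g1, Eif4a1, Eif4a2, Eif2s1, Eif2b5, Eif2ak3, Eif2ak4, Eif3a, Eif3f, Eif5a, Eif6 and Eif1), and up to 3 called genes of each pathway list; others were added after their values were seen. RefSeq promoters (GRCr8) and gene positions (rn7) are on different builds. Alternatives were other scalings, filters, pseudocounts, control limbs, variance models, an animal block and leaving out each limb.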

Additional observations from a re-analysis of the deposited data

Results flagged for a closer look

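Among the 9 control limbs, 10 of 52 members had a limb whose gap to its neighbour exceeded Dixon's 95% critical value as a share of the range on the log2 scale. Chance flags about 1 in 20 groups. In 7 of the 10 the limb was that of animal 372. It was the highest for Eif1ad (19.2 rescaled CPM, others 13.1 to 15.9), Eif2b5 (80.6, others 53.9 to 64.8), Eif3c (306, others 210.0 to 228), Eif4g3 (606, others 168 to 287), Eif4ebp1 (285, others 36.6 to 88.6) and Eif5a (443, others 322 to 373). It was the lowest for Eif4e3 (55.0, others 89.8 to 147). The other 3 were Eif1b in animal 366 (lowest, 25.2, others 34.9 to 47.1), Eif2ak1 in animal 371 (highest, 71.7, others 50.01 to 60.0) and Eif3d in animal 367 (lowest, 65.9, others 77.6 to 91.7).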

How the results depend on the processing

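Counts are members called by limma of 52. For alternatives other than the deposited CPM and the block, no share of all rows is given, so those counts have no background. After atrophy the count of 6 became 23 on the CPM as deposited, 3 with a fold of at least 1.5, 3 with only the groups compared in the fit and 0 against the right limbs of the same animals. Leaving out 1 limb gave 0 (atrophy limb of animal 362 or 372) to 12 (control limb of animal 372). After recovery the count of 10 became 2 on the CPM as deposited, 4 at the higher fold and 0 against the same animals' right limbs; leaving out 1 limb gave 0 (recovery limb of animal 369) to 12, with 1 and 3 without the recovery limbs of animals 370 and 371 and 4 and 6 without the control limbs of animals 365 and 366. The count of 16 after repeated atrophy became 33 on the CPM as deposited and 11 to 21 without 1 limb. Between recovery and atrophy the 9 became 24 on the CPM as deposited, 4 with only the groups compared and 1 to 14 without 1 limb. Between repeated atrophy and recovery the 21 became 9 to 23 without 1 limb. With the animal as a replicate block, which pairs the limbs, the counts against control were 0 (atrophy), 0 (recovery) and 18 (repeated atrophy), and 0 between treated groups; unadjusted p under 0.05 was reached by 7, 13 and 23 members against control. As a random effect the block gave 7, 10 and 20. Without the atrophy limb of animal 367 and the control limb of animal 372, an alternative chosen after seeing the data, the counts were 13, 7 and 19. No alternative called a member between repeated atrophy and atrophy.

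The mean log2 difference from control of a list also moved. On the CPM as deposited it was, after atrophy, 0.6324 for eIF1, 0.7066 for eIF2, 0.5118 for eIF2B, 0.3177 for the kinases, 0.6531 for eIF3, 0.4864 for eIF4F and 0.6522 for eIF5A and eIF6, and after repeated atrophy 0.7098 for eIF2, 0.5561 for eIF2B, 0.3593 for the kinases, 0.8252 for eIF3, 0.5317 for eIF4F, 0.08185 for the eIF4E inhibitors and 0.5591 for eIF5A and eIF6. Quantile normalization gave 0.3202 for eIF1 and 0.1608 for eIF4F after atrophy and -0.08168 for eIF4F after recovery. With members of at least 10 CPM only, the kinases were at 0.2309, the inhibitors at -0.9963 and eIF5A and eIF6 at -0.3233 after recovery, and the inhibitors at -0.5811 after repeated atrophy. Over the 32 calls of a member against control and 1215 alternative values, 1033 kept their call, 182 lost it and none reversed. With the animal block 14 of the 32 were kept and 18 lost. Against the right limbs of the same animals 12 were kept and 20 lost. The calls between treated groups are not in these totals. The causes of these changes were not tested, beyond fewer samples or a higher threshold where the alternative itself sets them. The number of 3 limbs per treated group and reads that cannot be recovered from the CPM limit the precision.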
